A study of Mus musculus with 6 samples.

Results

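The 10 genes described here encode the parts of elastic fibres and of the microfibrils on which these fibres form: the fibrillins *Fbn1* and *Fbn2*, elastin (*Eln*), the fibulins *Fbln1*, *Fbln2*, *Fbln5* and *Efemp2* (fibulin-4), the microfibril-associated glycoproteins *Mfap2* and *Mfap5*, and the elastin-microfibril interface protein *Emilin1*. They were chosen by name, and all 10 were found among the 17428 gene symbols of the table. Of these, 7 passed the filter on low coverage, and *Fbn2*, *Eln* and *Mfap2* did not. Fibrillins assemble outside the cell into beaded microfibrils, which serve as a scaffold for tropoelastin and hold the latent form of TGFβ in the matrix. Fibulins bridge elastin, microfibrils and the enzymes that crosslink elastin, the lysyl oxidases. Fibroblasts and smooth muscle cells are the usual source of these proteins, and many of their genes respond to TGFβ.

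The cells were EpH4, a near-normal mouse mammary epithelial line, in 3 states that all come from this 1 line. E cells were untreated, M cells had received TGFβ1 for 7 days, and RE cells had received TGFβ1 for 7 days followed by another 4 days in medium without it. Each state was sequenced in 2 biological replicates, so 6 libraries were compared. It is not given in the sources used here whether E cells were kept in culture for as long as the M and RE cells.

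The table holds a whole number per gene and library that behaves as sequenced bases summed over the gene, with reads of 50 bases. The libraries held between 35782513 and 47928557 reads' worth of bases. Values are given below as normalized coverage in ppm, that is, bases per 1000000 bases of the library after TMM scaling, and 3 reads' worth of bases or fewer (up to 0.0781 ppm, depending on the library) was taken as the floor. Because a long gene collects more bases, levels were compared between genes only per kb of transcript. A gene was called when its log2 fold change (log2FC, positive where the second-named state is higher) exceeded 1 either way with an adjusted p below 0.01 by limma, and the log2 fold changes are on the scale of log2(ppm + 0.1), where the changes of thinly covered genes come out too small. The E libraries were less alike than the others: 1049 of 13893 genes differed more than 2-fold between them, against 274 in the M pair and 224 in the RE pair. All 9 epithelial markers examined were above the floor in both E libraries, and their summed coverage was 3174 to 3497.5 ppm in the E, 3012.5 to 3036 in the M and 1290 to 1413 in the RE libraries. *Krt7* was the largest part of this sum, with means of 1409 ppm in E, 1585 in M and 366 in RE cells. Of the 8 tested, *Ocln*, *Cldn3*, *Cldn4* and *Tacstd1* (*Epcam*) were called lower in E vs. M and 0 higher. In M vs. RE *Ocln* was called higher and *Krt7* and *Krt8* lower. In E vs. RE *Cldn3*, *Cldn4*, *Krt18*, *Krt7* and *Tacstd1* were called lower and 0 higher. Beside these and the other marker calls, 8.58% of all genes tested were called higher and 8.39% lower in E vs. M. The shares were 8.08% and 4.79% in M vs. RE, and 6.2% and 3.17% in E vs. RE. *Cdh1* was not called in any comparison (limma adjusted p from 0.453 to 0.943). The summed coverage of 8 fibroblast markers was 136 to 165.5 ppm in the E, 991 to 1139 in the M and 1069 to 1252 in the RE libraries, with *Thy1* and *Dpt* at or below the floor in all 6. This sum hides opposite moves after TGFβ1 removal. Mean *Col1a1* coverage was 497 ppm in M and 236 in RE cells, and *Pdgfrb* was at 433 and 750 (not called). M cells had *Col1a1*, *Col1a2*, *Col3a1* and *Pdgfrb* called higher and *Dcn* lower than E cells. RE cells had *Dcn* and *Pdgfra* called higher and *Col1a1* lower than M cells. All 6 tested were called higher in RE than in E cells. Both *Dcn* calls against E cells were lost in 2-group fits and with array weights. The 6 smooth muscle markers were all above the floor in each state, with sums of 232.5 to 238 ppm in the E, 295 to 322 in the M and 211 to 215 in the RE libraries, most of it *Smtn*. Among them *Acta2* rose 170-fold in E vs. M (limma adjusted p = 1.38e-05) and fell in M vs. RE (log2FC −4.29, adjusted p = 0.000112). *Tagln* was called higher in E vs. M (1.16, limma adjusted p = 0.004). In the RE cells *Cnn1* was called higher in M vs. RE (2.67, limma adjusted p = 0.000822) and E vs. RE (2.80, adjusted p = 0.00125). There *Acta2* was also higher in E vs. RE (2.95, limma adjusted p = 0.00133). Only the RE libraries held 500 bases of *Cnn1*, the minimum of the filter, so *Cnn1* was tested only through the state where it was high. *Des*, *Myh11* and *Smtn* were not called in any comparison. *Des* was lower in E vs. M (−1.33, limma adjusted p = 0.0272) and E vs. RE (−1.81, adjusted p = 0.012). *Myh11* was at −0.93 in E vs. RE (limma adjusted p = 0.124), and *Smtn* lay between −0.19 and −0.05. Of the 3 haematopoietic markers, *Ptprc* was at or below the floor in every library, *Cd68* was at 5.17 to 9.18 ppm, and *Lyz2* was at 0.13 to 0.771 ppm and called higher in E vs. RE (1.64, limma adjusted p = 0.00947). The sums of 4 endothelial markers were 0.37 to 0.56 ppm in the E, 2.71 to 2.73 in the M and 0.493 to 0.497 in the RE libraries. Most of the M sums was *Cdh5*, at 0 in both E, 2.33 and 2.07 ppm in the M and 0.0423 and 0.091 in the RE libraries. *Cdh5* was called higher in E vs. M (4.52, limma adjusted p = 7.96e-05) and lower in M vs. RE (−3.80, adjusted p = 0.000202). It reached 500 bases only in the M libraries and so was also tested only through the state where it was high. In these bulk libraries a change in the share of cells that express a gene and a change in its RNA per cell cannot be told apart, and the part of these markers in the results below was not tested.

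*Fbln2* made up nearly all of the coverage of the 10 genes. Its share of their summed bases was between 93.2% and 97.3% in each library, and per kb of transcript it was still between 88.9% and 96.2%. Ranked per kb among the 15315 genes with a transcript length, *Fbln2* stood at percentile 98.4 in E, 99.9 in M and 99.4 in RE cells. *Efemp2* stood at percentiles 63.0, 78.1 and 71.5. The other 8 genes never stood above percentile 40.8, which *Fbln1* had in the RE cells. The summed coverage of the genes other than *Fbln2* was 38.65 and 34.9 ppm in the E, 90.1 and 90.2 in the M, and 77.6 and 70.3 in the RE libraries.

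**Figure D1:**
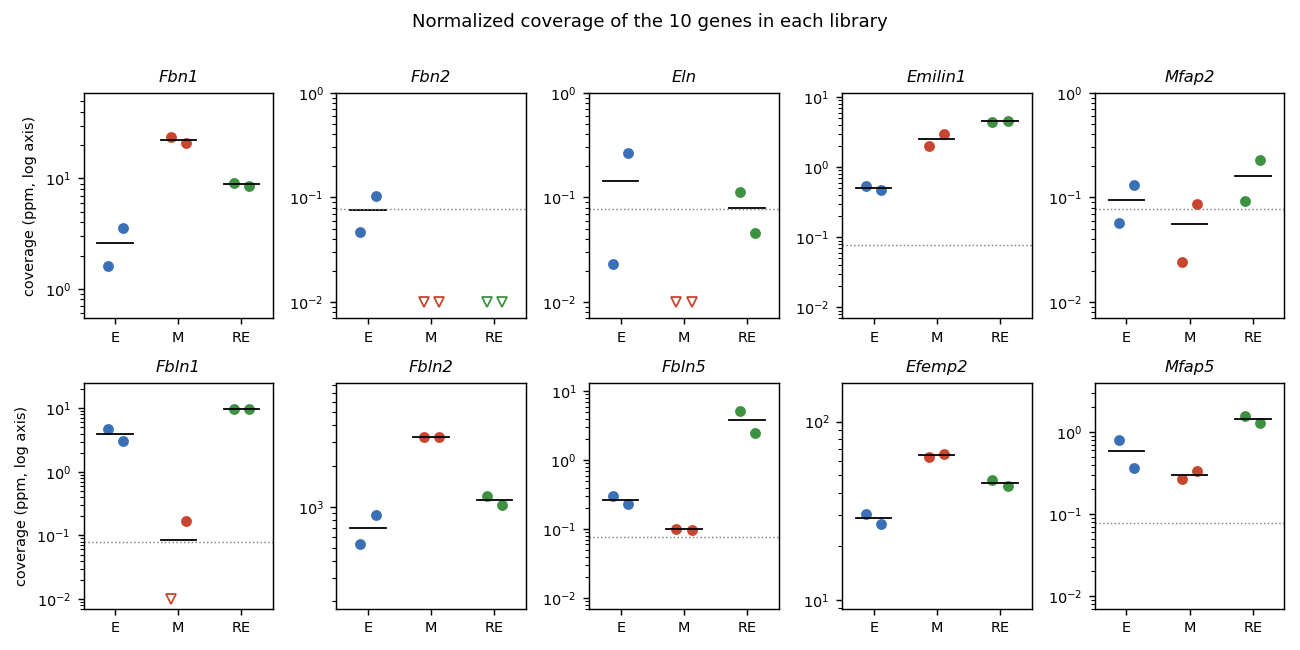
Normalized coverage (ppm, log axis) of each of the 10 genes in the 2 E (blue), 2 M (red) and 2 RE (green) libraries, with a line at each group mean; open triangles mark a library at 0 and the dotted line marks the highest floor, 0.0781 ppm. *Fbn1*, *Fbln2* and *Efemp2* are highest in the M libraries, *Fbln1*, *Fbln5*, *Mfap5* and *Emilin1* are highest in the RE libraries, and *Fbn2*, *Eln* and *Mfap2* lie around the floor.

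Of the fibrillins, which form the backbone of the microfibril, *Fbn1* rose with TGFβ1 and stayed above the E cells after its removal. *Fbn1* was at 1.62 and 3.57 ppm in the E libraries, at 24.0 and 20.9 in the M libraries and at 9.16 and 8.53 in the RE libraries. The groups did not overlap, although the E libraries differed by a factor of 2.20. In E vs. M the mean was 8.65 times higher in the M cells, with a log2FC of 3.16 ± 0.33 (SE, limma adjusted p = 0.000334). In E vs. RE the mean was 3.41 times higher in the RE cells, with a log2FC of 1.83 ± 0.33 (SE, limma adjusted p = 0.00647). The M vs. RE difference of −1.33 ± 0.33 (SE, limma adjusted p = 0.0191) was past the fold threshold but not called. It was called when M and RE were fitted alone (limma adjusted p = 8.04e-07) and without either E library (−1.33 and −1.31). The E vs. RE call was lost when those groups were fitted alone (limma adjusted p = 0.0265), without the filter (adjusted p = 0.014) and without any 1 of the M or RE libraries (adjusted p from 0.0191 to 0.0698), while its log2FC lay between 1.29 and 2.38 with each library left out in turn. Exons of *Fbn1* and *Fbn2* also overlap gene models on the opposite strand that were not used here. *Fbn2*, the fibrillin known mainly from embryonic tissue, was barely detected, with 100 and 200 bases in the E libraries and 0 in all M and RE libraries. These are 2 and 4 reads' worth of bases. Without the filter *Fbn2* was not called in any comparison (limma adjusted p from 0.0414 to 1), and the depth does not allow a fold to be given.

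Coverage of *Eln*, which encodes the tropoelastin that forms the core of the elastic fibre, was near the floor in every state. Its libraries held 50 and 506 bases in E, 0 and 0 in M, and 263 and 100 bases in RE. The single value above the filter minimum of 500 bases, 506, is 10.1 reads' worth and stood beside 1 read's worth in the other E library. Without the filter, *Eln* was not called in any comparison, with adjusted p-values from 0.142 to 0.736 by limma. A difference in *Eln* between the states was therefore not detectable at this depth.

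The fibulins, which link elastin and microfibrils to each other and to the cell surface, did not move together. *Fbln2*, which binds fibronectin, fibrillin and basement membrane proteins, was at 529.8 and 874 ppm in the E, 3264 and 3279 in the M and 1195 and 1041 in the RE libraries. The M libraries were far above the rest and nearly equal to each other. Both RE libraries lay above both E libraries, which differed from each other by a factor of 1.65. *Fbln2* rose 4.66-fold in E vs. M (log2FC 2.27 ± 0.24 SE, limma adjusted p = 0.000367). It fell in M vs. RE, where the RE mean was 0.342 of the M mean (log2FC −1.55 ± 0.24 SE, limma adjusted p = 0.00259). The RE mean was 1.59 times the E mean, a difference that was not called (0.71, 95% interval 0.15 to 1.27, limma adjusted p = 0.0585) except without the second E library, where it was 1.08. The fall in M vs. RE kept a log2 fold change between −1.65 and −1.45 without 1 library at a time, but lost its call without any 1 of the M or RE libraries (limma adjusted p from 0.0249 to 0.0343).

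*Efemp2*, or fibulin-4, which brings lysyl oxidase to tropoelastin, followed the same order at a lower level and with a smaller range. It was at 30.5 and 26.7 ppm in the E, 63.7 and 65.6 in the M and 47.0 and 43.4 in the RE libraries, so that the RE libraries lay between the others. It rose 2.26-fold in E vs. M (log2FC 1.18 ± 0.14 SE, limma adjusted p = 0.000554). Neither M vs. RE (−0.52, 95% interval −0.83 to −0.20, limma adjusted p = 0.0248) nor E vs. RE (0.66, 95% interval 0.34 to 0.98, adjusted p = 0.011) was called. The rise in E vs. M was close to the fold threshold: it was 0.88 and not called with the libraries scaled by their totals alone, and it lost its call without the first (1.20, limma adjusted p = 0.0115) or the second M library (1.15, adjusted p = 0.0129). Part of *Efemp2* overlaps exons of the DNA repair gene *Mus81* on the opposite strand, and the sources used here do not say whether the reads were summed by strand. *Mus81* had a mean of 41.2 ± 8.21 ppm (SD, n = 2) in the E, 30.7 ± 1.58 in the M and 35.4 ± 0.501 in the RE cells and was not called in E vs. M (−0.41, limma adjusted p = 0.0826).

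*Fbln1*, which binds fibronectin, laminin and elastin, went the other way. It was at 4.78 and 3.04 ppm in the E libraries, at 0 and 0.17 in the M libraries and at 9.91 and 9.66 in the RE libraries. The M value of 0.17 ppm is 350 bases or 7 reads' worth, the only *Fbln1* coverage in both M libraries together. *Fbln1* fell in E vs. M (log2FC −4.57 ± 0.46 SE, limma adjusted p = 0.000285) and rose in M vs. RE (5.91 ± 0.46 SE, adjusted p = 9.68e-05). The size of these changes depended on the pseudocount, the M libraries being at or near 0, and went from −5.78 to −2.16 for E vs. M when the pseudocount was raised from 0.025 to 1 ppm, and from 7.13 to 3.32 for M vs. RE, with a call each time. Both RE libraries were above both E libraries, with a ratio of their means of 2.503, which was not called (1.34, 95% interval 0.27 to 2.41, limma adjusted p = 0.0624). It was called without the first E library (1.65, adjusted p = 0.00671) and at a pseudocount of 1 ppm (1.16, adjusted p = 0.00577).

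*Fbln5*, which binds both tropoelastin and cell-surface integrins and is needed for elastic fibre formation, was highest in the RE cells. Its coverage was 0.301 and 0.230 ppm in the E, 0.101 and 0.0971 in the M and 5.22 and 2.48 in the RE libraries. The M libraries held 211 and 200 bases, just above the floor of 150 bases, and the RE libraries differed from each other by a factor of 2.11. *Fbln5* rose in M vs. RE (log2FC 4.22 ± 0.39 SE, limma adjusted p = 0.000239), where the RE mean was 38.8 times the M mean. It was also higher in E vs. RE, by a factor of 14.5 (log2FC 3.35 ± 0.39 SE, limma adjusted p = 0.00134). The E vs. M value of −0.87 (95% interval −1.79 to 0.05, limma adjusted p = 0.114) was not called. Without the first RE library the E vs. RE difference was 2.82 and not called (adjusted p = 0.0228).

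*Fbln1* and *Fbln5* thus had their lowest mean in the M and their highest in the RE cells, and *Efemp2* had its lowest in the E and its highest in the M cells. The 250 bases before a RefSeq start of these genes (build GRCm38.p6) are shown. They are the windows, 3 of the 12 listed for 7 of the 10 genes, with no base in an annotated exon, and were picked for that. Of the 12 windows, 9 are followed by 30 bases found in a transcript of the gene. Whether the starts shown are used in EpH4 cells, and any link of their letters to the RNA changes, was not tested. The windows are chr15:85205699-85205948 on the plus strand for *Fbln1*, chr12:101819120-101819369 on the minus strand for *Fbln5* and chr19:5473696-5473945 on the plus strand for *Efemp2*, each written 5′ to 3′ towards the start. Capitals mark the letters GTCTG, the core of a Smad binding element, and GGGCGG, a GC box, on either strand.
Fbln1: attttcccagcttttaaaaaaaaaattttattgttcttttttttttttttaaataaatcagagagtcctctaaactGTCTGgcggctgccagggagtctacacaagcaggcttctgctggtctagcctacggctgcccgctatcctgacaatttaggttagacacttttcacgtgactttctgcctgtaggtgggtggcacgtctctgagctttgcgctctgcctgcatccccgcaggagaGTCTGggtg
Fbln5: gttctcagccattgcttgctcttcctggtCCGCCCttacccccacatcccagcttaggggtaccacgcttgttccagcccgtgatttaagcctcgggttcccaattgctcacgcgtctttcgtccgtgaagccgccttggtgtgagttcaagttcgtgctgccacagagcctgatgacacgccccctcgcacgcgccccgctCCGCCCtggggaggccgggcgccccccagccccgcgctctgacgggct
Efemp2: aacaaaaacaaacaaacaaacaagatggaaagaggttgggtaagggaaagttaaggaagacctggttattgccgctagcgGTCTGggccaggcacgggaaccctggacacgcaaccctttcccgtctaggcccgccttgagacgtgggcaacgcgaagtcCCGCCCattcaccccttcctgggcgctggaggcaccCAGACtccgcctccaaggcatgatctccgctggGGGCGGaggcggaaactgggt
The GTCTG letters stood 174 and 9 bases before the start of *Fbln1* and 170 and 54 bases before that of *Efemp2*, and were not in the *Fbln5* window. GC box letters stood 221 and 48 bases before the *Fbln5* start and 90 and 21 bases before the *Efemp2* start, and were not in the *Fbln1* window. These absences hold for the starts shown: another *Fbln5* window holds GTCTG 199 and 15 bases before its start, another *Fbln1* window holds GGGCGG 11 bases before its start, and the 2 other *Efemp2* windows hold GGGCGG but not GTCTG. Among all 32851 promoter windows of this length, 42.2% hold GTCTG and 32.7% hold GGGCGG. The AP-1 letters TGANTCA, held by 6.75% of all windows, and the E-box letters CAGGTG, held by 17.2%, were in none of the 12 windows of these genes. GC content was 46.4% in the *Fbln1*, 65.2% in the *Fbln5* and 59.2% in the *Efemp2* window, against a median of 52.4%. These matches are descriptions of the letters and were not tested for binding.

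*Mfap2* and *Mfap5* encode small glycoproteins of the microfibril surface that bind fibrillin, and both were low. *Mfap5* was at 0.793 and 0.365 ppm in the E, 0.266 and 0.338 in the M and 1.56 and 1.29 in the RE libraries, which is between 11.1 and 73.9 reads' worth of bases. The RE libraries were the highest, and the lower E library stood close to the M libraries. *Mfap5* rose in M vs. RE, with an RE mean 4.72 times the M mean (log2FC 1.92 ± 0.37 SE, limma adjusted p = 0.00736). This call was lost without any 1 of the M or RE libraries (limma adjusted p from 0.0405 to 0.076), without the filter (adjusted p = 0.0128) and at a pseudocount of 1 ppm (0.90). E vs. M (−0.69, 95% interval −1.56 to 0.19, limma adjusted p = 0.177) and E vs. RE (1.24, 95% interval 0.36 to 2.11, adjusted p = 0.0421) were not called, the latter except without the first E library (1.70). *Mfap2* had between 50 and 504 bases per library, that is 123 and 254 in the E, 50 and 178 in the M and 220 and 504 in the RE cells. The E libraries overlapped with both other groups, while both RE libraries were above both M libraries, and without the filter *Mfap2* was not called in any comparison (limma adjusted p from 0.212 to 0.542).

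*Emilin1*, which lies between the elastin core and the microfibrils and holds pro-TGFβ in check, rose with TGFβ1 and was still higher than in the E cells after its removal. It was at 0.542 and 0.468 ppm in the E, 2.02 and 2.97 in the M and 4.49 and 4.63 in the RE libraries. The groups did not overlap, and the RE libraries were nearly equal to each other. In E vs. M the mean was 4.94 times higher in the M cells (log2FC 2.08 ± 0.26 SE, limma adjusted p = 0.000799). In E vs. RE it was 9.02 times higher in the RE cells (log2FC 2.95 ± 0.26 SE, limma adjusted p = 0.000531). The M vs. RE difference was not called (0.87, 95% interval 0.26 to 1.48, limma adjusted p = 0.0391). The E vs. M call was lost without the second M library (1.81, adjusted p = 0.0117), and the E vs. RE call without the first (2.97, adjusted p = 0.0142) or the second RE library (2.92, adjusted p = 0.0112).

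**Figure D2:**
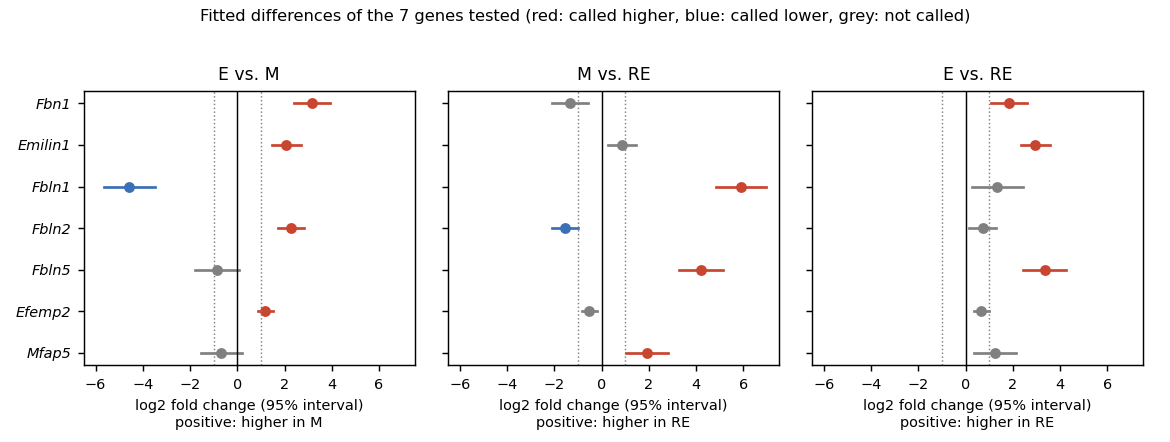
Fitted log2 fold change (x axis, with 95% interval) of the 7 genes tested in E vs. M, M vs. RE and E vs. RE; red marks genes called higher and blue genes called lower in the second-named state, grey those not called, and dotted lines mark a log2 fold change of 1 either way. *Fbln1* lies at −4.57 where M is set against E and at 5.91 where RE is set against M, opposite to *Fbn1* and *Fbln2* in both.

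In E vs. M, 4 of the 7 genes tested were called higher in the M cells (*Fbn1*, *Fbln2*, *Emilin1* and *Efemp2*) and 1 lower (*Fbln1*), where 8.58% of all 13893 genes tested were called higher and 8.39% lower. In M vs. RE, 3 were called higher in the RE cells (*Fbln1*, *Fbln5* and *Mfap5*) and 1 lower (*Fbln2*), against 8.08% and 4.79% of all genes. In E vs. RE, 3 were called higher in the RE cells (*Fbn1*, *Fbln5* and *Emilin1*) and 0 lower, against 6.2% and 3.17% of all genes. All 7 fitted values in E vs. RE were positive, as were 50.5% of those of all genes, and by limma 7 were higher and 0 lower at an unadjusted p below 0.05. At that looser threshold 25.9% of all genes were higher and 25.1% lower in E vs. M, 22% and 20.7% in M vs. RE, and 23.7% and 19.7% in E vs. RE, which is the background of every unadjusted count given here. The 7 values leave out the genes below the filter, which did not all go the same way. Without the filter the E vs. RE value was −0.79 for *Fbn2*, −0.27 for *Eln* and 0.40 for *Mfap2*, none of them called. *Fbln5* reached the filter minimum of 500 bases only in the RE libraries and the first E library. The median log2 fold change of the 7 genes was 1.18 for E vs. M, then 0.87 for M vs. RE and 1.34 for E vs. RE, beside medians of 0.0013, −0.017 and 0.0079 over all genes. The 7 genes had no overlap between the libraries of either state in any comparison, which was also the case for 70.6% of all genes when E and M were compared, 78.1% for M and RE, and 66.7% for E and RE. Any pair of these comparisons shares the libraries of 1 state, so their values are not independent of each other, and as there are 2 libraries in each state the p-values measure only the spread within these pairs.

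The counts depended on single libraries. Leaving out 1 library at a time moved the number of calls among the 7 genes in each comparison. The number of calls among all genes tested moved in these fits too. Every such fit leaves 1 state with a single library, so the moves in these counts are not a result about the 7 genes. Among the 7, the fewest calls were left in E vs. RE when an RE library was left out. No fitted difference of the 7 genes changed its sign in these fits. The *Fbn1* and *Fbln2* rises in E vs. M, the *Fbln1* changes in E vs. M and M vs. RE and the *Fbln5* rise in M vs. RE were called in each of them.

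**Figure D3:**
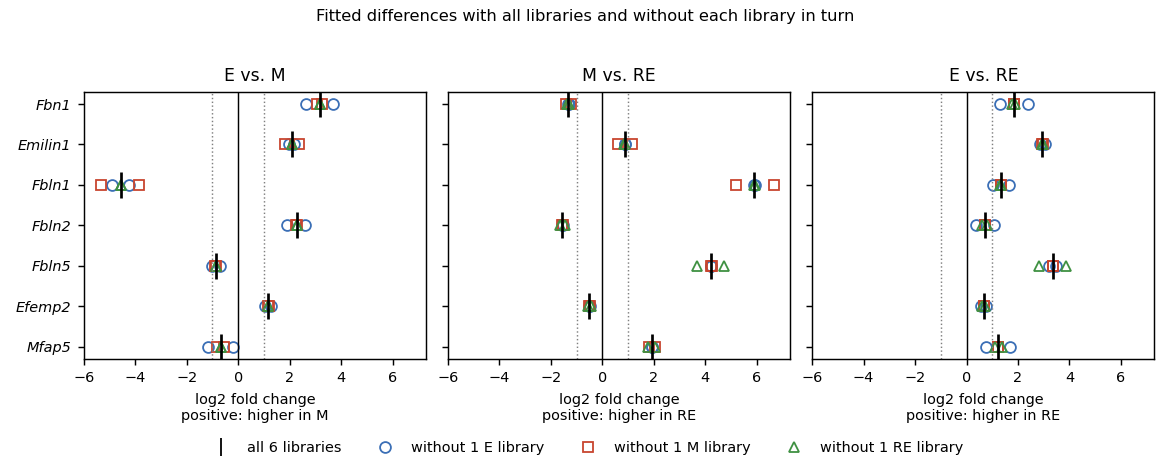
Fitted log2 fold change (x axis) of the 7 genes tested with all 6 libraries (black bar) and without 1 library in turn (open symbols, by the state of the library left out), with dotted lines at a log2 fold change of 1 either way. The symbols spread most for *Fbln1* when an M library is left out, from 5.21 to 6.65 in M vs. RE, and each gene stays on its side of 0 in each comparison.

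The enzymes that crosslink elastin and collagen and their copper supply were examined as a list of 6, all tested. In E vs. M, 4 were called higher in the M cells (*Lox*, *Loxl2*, *Loxl3* and the copper transporter *Atp7a*) and 1 lower (*Loxl4*). In M vs. RE, *Loxl4* was called higher and *Loxl1* and *Loxl2* lower in the RE cells. For E vs. RE *Loxl3* and *Atp7a* were called higher and 0 lower, with 1 lower at an unadjusted p below 0.05 by limma. Among all genes tested, 8.58% were called higher and 8.39% lower in E vs. M, 8.08% and 4.79% in M vs. RE, and 6.2% and 3.17% in E vs. RE. *Lox*, lysyl oxidase itself, was at 0.0255 and 0.0521 ppm in the E libraries, below the floor, at 0.62 and 0.91 in the M libraries and at 0.339 and 0.366 in the RE libraries, so that its M mean was at least 10.4-fold higher and its RE mean at least 4.78-fold higher than 3 reads' worth per E library. The first difference was called (limma adjusted p = 0.00103) and the second was not (adjusted p = 0.0103). The second gained a call at a pseudocount of 0.025 ppm (limma adjusted p = 0.00775), without the filter (adjusted p = 0.00954) and without the second E library (1.84). *Loxl2* was at 0 and 0.0521 ppm in the E, 2.29 and 2.23 in the M and 0.105 and 0.0464 in the RE libraries, and its M mean was at least 30.6-fold above the E floor (limma adjusted p = 0.000156). It reached the filter minimum of 500 bases only in the M libraries and so entered the test only through them. *Loxl3* was 13.0-fold higher in the M cells (limma adjusted p = 9.2e-06) and 9.26-fold higher in the RE cells (adjusted p = 8.62e-05) than in the E cells. *Loxl4* was lowest in the M cells, with 235 and 567 ppm in the E, 92.9 and 96.7 in the M and 440 and 352 in the RE libraries, where E and RE overlapped. The *Loxl4* calls in E vs. M (−1.95) and M vs. RE (2.05) were both lost without any 1 of the M or RE libraries, at log2 fold changes from −2.58 to −1.33 and from 1.89 to 2.22 over all such fits. The E vs. M call of *Lox* (2.63) was lost at a pseudocount of 1 ppm (0.76) and without the second M library (2.40, with values from 2.40 to 2.89 over all such fits), and that of *Loxl1* in M vs. RE (−1.65, then from −1.97 to −1.32) without either M library or the first RE library.

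The latent TGFβ binding proteins attach to fibrillin microfibrils, and all but *Ltbp2*'s product bind the latent growth factor. *Ltbp1* rose 2.75-fold in E vs. M (limma adjusted p = 0.000688), from 189 and 268 ppm in the E to 635 and 621 ppm in the M libraries. *Ltbp2* rose 5.55-fold in E vs. M (limma adjusted p = 0.000158), fell in M vs. RE (log2 fold change −1.23, adjusted p = 0.00513) and was 2.36-fold higher in E vs. RE (adjusted p = 0.00579). *Ltbp4* fell in E vs. M (log2 fold change −1.23, limma adjusted p = 0.00161), from 11.2 and 13.0 ppm to 4.75 and 5.48 ppm. *Ltbp3* was not called in any comparison (limma adjusted p from 0.233 to 0.626), and its 6 libraries lay between 1079 and 1409 ppm. The *Ltbp1* and *Ltbp4* calls were lost without either M library (log2 fold changes over all fits without 1 library from 1.23 to 1.71 and from −1.33 to −1.13). The *Ltbp2* call in M vs. RE was lost without any 1 of the M or RE libraries (from −1.35 to −1.11), and that in E vs. RE without those or the first E library (from 0.94 to 1.62).

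**Figure D4:**
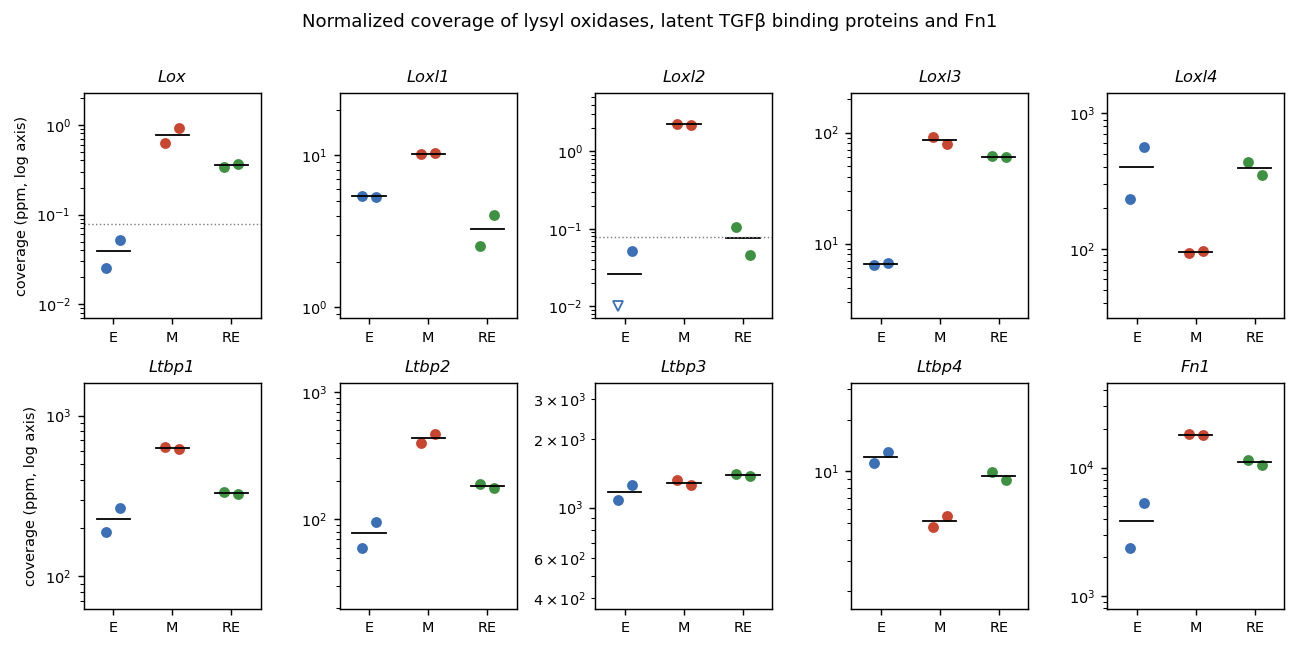
Normalized coverage (ppm, log axis) of the lysyl oxidases, the latent TGFβ binding proteins and *Fn1* in the 2 E (blue), 2 M (red) and 2 RE (green) libraries, with a line at each group mean; an open triangle marks a library at 0 and the dotted line the highest floor, 0.0781 ppm. *Loxl4* and *Ltbp4* have their lowest values in the M libraries, and *Ltbp3* stays between 1079 and 1409 ppm.

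Of 15 tested genes known to act in the assembly of microfibrils and elastic fibres, 5 were called higher and 3 lower in E vs. M. The higher ones were *Adamts6*, *Adamtsl3*, *Fn1*, *Furin* and *Vcan*, and the lower ones *Dcn*, *Thsd4* and *Tnxb*. In M vs. RE 5 were called higher (*Adamtsl2*, *Adamtsl4*, *Bgn*, *Dcn* and *Thsd4*) and 0 lower, with 3 lower at an unadjusted p below 0.05 by limma. In E vs. RE 7 were called higher and 1 lower. Of all genes tested, 8.58% were called higher and 8.39% lower in E vs. M. These shares were 8.08% and 4.79% in M vs. RE, and 6.2% and 3.17% in E vs. RE. *Fn1*, fibronectin, on which fibrillin is laid down, was at 2379 and 5276 ppm in the E, 18203 and 17943 in the M and 11513 and 10501 in the RE libraries. Its 4.72-fold rise in E vs. M was called (limma adjusted p = 0.00184), although not without either M library (log2 fold change over all fits without 1 library from 1.78 to 2.90). The E vs. RE difference of 1.63 was not called (limma adjusted p = 0.0135), except with array weights (adjusted p = 0.00344) and without the first (1.06) or the second E library (2.21). *Adamtsl3* was 31.6-fold higher in the M cells (limma adjusted p = 4.41e-05) and 18.6-fold higher in the RE cells (adjusted p = 0.00037) than in the E cells. *Adamts6*, a protease of the same superfamily, was 7.79-fold higher in E vs. M (limma adjusted p = 0.000136) and 7.64-fold higher in E vs. RE (adjusted p = 0.000493). *Adamtsl2* and *Adamtsl4*, whose products bind fibrillin, were called in M vs. RE, at 27.8-fold (limma adjusted p = 0.000844) and 5.17-fold (adjusted p = 8.29e-05) higher in the RE cells. They were also called in E vs. RE, at 20.2-fold (limma adjusted p = 0.00265) and 5.09-fold (adjusted p = 0.000366) higher, and not in E vs. M (adjusted p = 0.401 and 0.882). *Dcn*, the small proteoglycan decorin, was at 0.496 and 0.301 ppm in the E, 0 and 0.0068 in the M and 3.79 and 1.74 in the RE libraries, so that the RE mean was at least 38.2-fold above the M floor (limma adjusted p = 0.000217). *Tnxb*, tenascin-X, fell in E vs. M (log2 fold change −2.86, limma adjusted p = 0.000464) and was also lower in E vs. RE (−2.14, adjusted p = 0.00331). Without the first RE library the calls in E vs. RE of *Adamtsl3* (4.18, limma adjusted p = 0.0117), *Adamts6* (2.82, adjusted p = 0.0135) and *Tnxb* (−2.22, adjusted p = 0.0379) were lost, as were those of *Adamtsl2* (3.82, adjusted p = 0.0396) and *Adamtsl4* (2.35, adjusted p = 0.0117) and the call of *Adamtsl2* in M vs. RE (4.48, adjusted p = 0.0136). The E vs. RE calls of *Tnxb* (−2.05, limma adjusted p = 0.0343) and *Adamtsl2* (4.58, adjusted p = 0.0197) were also lost without the second RE library.

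Among the integrins and other receptors of the fibre proteins, 10 were tested, of which 5 were called higher in E vs. M (*Itga5*, *Itgav*, *Itgb1*, *Itgb3* and *Itgb5*) and 0 lower, with 2 lower at an unadjusted p below 0.05 by limma. Over all genes 8.58% were called higher and 8.39% lower in E vs. M, 8.08% and 4.79% in M vs. RE, and 6.2% and 3.17% in E vs. RE. *Itgb3*, which pairs with *Itgav* in a receptor for fibrillin-1 and fibulin-5, was at 0.0231 and 0 ppm in the E, 10.5 and 11.8 in the M and 0.0838 and 0.0678 in the RE libraries, and its M mean was at least 151-fold above the E floor (limma adjusted p = 1.14e-05). *Itgb3* reached the filter minimum of 500 bases only in the M libraries, so it was tested only through the state where it was high. *Itga5* was at 85.9 and 106 ppm in the E, 1082 and 1120 in the M and 179 and 171 in the RE libraries. Both fell again in M vs. RE, where *Itgav*, *Itgb1* and *Itgb6* were also called lower and *Itgb8* higher. *Itgav* and *Itgb8* were called higher in E vs. RE, by 2.96-fold (limma adjusted p = 0.0035) and 7.77-fold (adjusted p = 0.00241). The latter calls were lost without either RE library, at log2 fold changes over all fits without 1 library from 1.21 to 2.04 for *Itgav*, which also lost its call without either M library, and from 2.44 to 3.42 for *Itgb8*. In M vs. RE the calls of *Itgav* (−1.58, limma adjusted p = 0.00265) and *Itgb8* (2.49, adjusted p = 0.0031) were both lost without any 1 of the M or RE libraries, at adjusted p from 0.0266 to 0.0297 and from 0.0119 to 0.0381. Such fits were not examined for *Itgb1*, *Itgb5* and *Itgb6*.

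Of 7 tested proteases that can cleave elastin or microfibrils, *Mmp9* and *Mmp12* were called higher in E vs. M, as were 8.58% of all genes. *Mmp9*, gelatinase B, was at 1.42 and 1.74 ppm in the E, 966 and 866 in the M and 1.26 and 1.98 in the RE libraries, a 581-fold rise (limma adjusted p = 7.34e-06) followed by a fall in M vs. RE (log2 fold change −9.09, adjusted p = 3.7e-06). The *Mmp12* call (2.20, limma adjusted p = 0.00983) was at the threshold and was lost without any 1 of the M or RE libraries (from 1.73 to 2.64 over all fits without 1 library). It was also lost with median-of-ratios (limma adjusted p = 0.0111) or library-total scaling (0.0171), at a pseudocount of 0.025 ppm (0.0159) or 1 ppm (log2FC 0.86), without the filter (0.0143), in the 2-group fit (0.0153), with array weights (0.0314) and with the replicate block (0.0108). *Mmp2*, gelatinase A, was at 1.05 and 1.11 ppm in the E, 1.51 and 1.42 in the M and 5.24 and 4.52 in the RE libraries and was called higher in M vs. RE (1.67, limma adjusted p = 0.00127) and E vs. RE (2.07, adjusted p = 0.000981). These calls were lost without either RE library and, in M vs. RE, also without either M library (from 1.56 to 1.77 and from 1.97 to 2.18). Of 6 tested protease inhibitors, *Timp1* rose 4.31-fold in E vs. M (limma adjusted p = 3.47e-05) and fell in M vs. RE (−1.57, adjusted p = 0.000132), while *Slpi*, an inhibitor of neutrophil elastase, fell in E vs. M (−1.76, adjusted p = 0.00164) and rose 5.12-fold in M vs. RE (adjusted p = 0.00051). *Slpi* lost its E vs. M call without either M library (from −2.18 to −1.35). *Cst3*, cystatin C, rose 2.24-fold in M vs. RE (limma adjusted p = 0.00358), a call lost without any 1 of the M or RE libraries (from 1.0008 to 1.31). None of the 6 inhibitors was called in E vs. RE, where 6 were higher and 0 lower at an unadjusted p below 0.05 by limma, against 23.7% and 19.7% of all genes.

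Further relatives of the fibulins, microfibril-associated proteins and emilins were mostly low or absent. Of 12 listed, 10 were in the table and 5 were tested. By limma 0 of these 5 were called in any of the 3 comparisons. At an unadjusted p below 0.05 by limma there were 3 higher in E vs. M, 1 lower in M vs. RE and 1 higher in E vs. RE. The shares of all genes on those sides were 25.9%, 20.7% and 23.7%. *Emilin2* and *Emilin3*, among the 5, reached the filter minimum of 500 bases only in the M libraries.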

How the data were processed

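RNA from 2 libraries each of E, M and RE cells had been sequenced. Per the study's methods, the authors kept unique reads and mapped them to mouse build NCBI-m37 with Bowtie and TopHat2. The deposited values behave as coverage (sequenced bases per gene, many of them multiples of 50), a signal and not a read count, so the count test of the study was not run. How reads were summed per gene, the annotation and the use of strand are not given in the sources used here.

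The test took genes that 2 or more libraries covered with 500 bases or more. Library sizes were scaled by TMM (trims of 30% and 5%), and log2(ppm + 0.1) was fitted for all 6 libraries with limma 3.58.1 (trend) in R 4.3.3, with Benjamini-Hochberg adjustment over 13893 genes. A fold is a ratio of group means. The code was tested on simulated data. Transcript lengths came from GENCODE and were matched for 15315 of 17428 genes. Overlapping gene models came from the same annotation. Promoters came from RefSeq (GRCm38.p6), matched by symbol for 7 of the 10 genes. Intervals and floors cover counting error or the spread between these libraries only.

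The members and lists were chosen with earlier results of these data known. Besides the 10 genes, the text names the lysyl oxidases, the latent TGFβ binding proteins, *Fn1* and, from each other list, up to 3 called genes with the largest log2 fold change per comparison; any other gene is named where a count of 5 or fewer needs it. The cell type markers named singly, and *Mus81*, were chosen after their values were seen. Alternatives were other scalings, pseudocounts, filters and thresholds, array weights, 2-group fits, a replicate block and leaving out each library.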

Additional observations from a re-analysis of the deposited data

How the results depend on the processing

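Over all alternatives, 318 of the fits of the 7 genes kept their direction and side of the threshold, 10 gained and 23 lost a call, and 0 changed sign. With 500 bases required in every library, 2 of the genes were called in M vs. RE, since *Fbln1* and *Fbln5* were no longer tested. Fitting E and RE alone left 525 genes called among all genes; the cause was not tested. Without 1 library at a time, the genes called ranged from 945 to 3362 in E vs. M, from 683 to 2337 in M vs. RE and from 44 to 2348 in E vs. RE, and those among the 7 from 3 to 5, from 2 to 5 and from 0 to 5. Scaling by library totals moved the median of all genes to −0.29 in E vs. M and 0.18 in M vs. RE and the share of calls that were higher to 30.5% and 73.8%, and turned the uncalled differences of *Ltbp3* in E vs. M (−0.15), *Adamts6* in M vs. RE (0.17) and *Mmp9* in E vs. RE (−0.081). Uncalled differences also changed sign without single libraries, from −0.046 to 0.91 for *Itgb8*, −0.27 to 0.19 for *Adamtsl4* and −1.59 to 0.28 for *Adamtsl2* in E vs. M, −0.18 to 0.11 for *Adamts6* in M vs. RE, and −0.53 to 0.75 for *Loxl4*, −0.30 to 0.32 for *Mmp9* and −0.55 to 0.33 for *Mmp12* in E vs. RE. The sources used here do not say whether libraries of the same replicate number were grown or handled together. Deviations of the first replicate from its group mean correlated at 0.267 between E and M, 0.058 between E and RE and 0.116 between M and RE. Each state gives only 1 such deviation per gene, so these values cannot decide whether the libraries are paired. With the replicate block, 5, 4 and 3 of the genes were called in E vs. M, M vs. RE and E vs. RE and 2431, 1830 and 1284 of all genes. *Mmp12* lost its call in E vs. M (limma adjusted p = 0.0108) and *Lox* gained one in E vs. RE (adjusted p = 0.00989). No other call changed among the named genes for which the alternatives were run. They were not run for *Atp7a*, *Furin*, *Vcan*, *Thsd4*, *Bgn*, *Itgb1*, *Itgb5*, *Itgb6*, *Mus81* and the cell type markers other than *Dcn*. *Fbn2*, *Eln* and *Mfap2* lie too near the floor for a fold.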
